A study of Mus musculus with 4 samples.

Results

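The DEAD and DEAH box RNA helicases were examined in RNA that was immunoprecipitated from mouse germ cells with an antibody to TSSK2. The members were all genes of the deposited count table whose GENCODE vM21 symbol is Ddx or Dhx followed by a digit, a rule that uses no measured value. They were 53 of 21936 genes, of which 37 carried a Ddx and 16 a Dhx symbol, and all 53 passed the filter on low counts. Germ cells from the testes of adult C57BL/6 mice were cross-linked, and the pellet fraction of the lysate was used for IP with anti-TSSK2 (TSSK2-IP) or with mouse IgG (control IgG-IP). The antigen, a serine kinase made in the testis, marks the late chromatoid body (late-CB), an RNA and protein granule of elongating spermatids. The comparison of both kinds of IP asks which mRNAs are bound in this granule more than to the control antibody. The groups had 2 libraries each. All mice were without a transgene or treatment as far as the labels and methods tell, and no source says whether the replicates came from separate animals or pools, so the spread between libraries may be technical. The values describe the mRNAs that encode the helicases, not the helicase proteins.

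RNA helicases of this family use ATP to pull apart short RNA duplexes or to strip proteins from RNA, and they are named after the amino acids of motif II, which binds the magnesium ion of the nucleotide. Members act at nearly every step in the life of an mRNA, from splicing through export and translation to decay, and many others build ribosomes in the nucleolus. Male germ cells use some members in particular. Ddx4, the mouse homologue of vasa, is a main component of the chromatoid body of round spermatids and of the piRNA pathway, and Ddx25, also called gonadotropin-regulated testicular RNA helicase, is needed for spermatids to complete their development.

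The motif II codons show what unites and what splits the family. A search of the longest coding sequence of each member found codons for DEAD in 28 of the 37 Ddx genes and codons for DEAH in 8 of the 16 Dhx genes. Ddx11 carried DEAH under a Ddx symbol, 8 Ddx and 7 Dhx genes had another residue in the box, and no match was found for Dhx32. The following stretches of 30 coding bases are given for the helicases to which the comparison below returns most often, with the 12 bases of motif II in capitals. Each is written 5′ to 3′ on the strand of the gene, lies within 1 coding exon and was the same in the GENCODE vM21 transcript and in the GRCm38 genome.
Ddx4, chr13:112612088-112612117, minus strand: ttagttttgGATGAAGCTGATcgaatgttg
Ddx25, chr9:35551326-35551355, minus strand: tttgtcctgGATGAAGCAGATgtgatgatt
Ddx5, chr11:106785184-106785213, minus strand: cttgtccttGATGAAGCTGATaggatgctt
Ddx17, chr15:79538866-79538895, minus strand: cttgtgttgGATGAGGCTGACcggatgctt
Ddx39, chr8:83721101-83721130, plus strand: tttgtgctaGATGAATGTGACaagatgctg
Ddx39b, chr17:35247081-35247110, plus strand: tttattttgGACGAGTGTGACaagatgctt
Dhx35, chr2:158818266-158818295, plus strand: atcatgctgGATGAAGCCCACgagaggacc
Dhx30, chr9:110087664-110087693, minus strand: gtcattgtgGATGAGGTCCATgagcgggat
Ddx4, Ddx25, Ddx5 and Ddx17 share the DEAD box and Dhx35 has the DEAH box, whereas the closely related Ddx39 and Ddx39b, and separately Dhx30, have another residue in the box. The median fitted log2 fold change of TSSK2-IP over control IgG-IP was -0.42 over the 28 members with DEAD. It was -0.29 over the 9 with DEAH, 0.07 over the 15 with another residue and -0.02 over all genes. Signs were mixed in each class, with 19, 7 and 7 members below 0, and a link to the box was not tested.

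The libraries held 4158034 and 4491749 counts in TSSK2-IP and 9858941 and 3938922 counts in control IgG-IP, and the helicases together took 0.513%, 0.516%, 0.609% and 0.512% of them. Counts are given below as TMM-normalized CPM, in which counts are divided by the product of the library total and a TMM factor. The factors were 1.17 and 1.18 in TSSK2-IP and 0.652 and 1.12 in control IgG-IP. CPM values are therefore not plain shares of a library. On this scale 3 counts correspond to between 0.468 and 0.689 CPM in a library. Control IgG-IP replicate 1 stood apart from the other 3 libraries. Over the helicases, replicates of TSSK2-IP differed by a median of 0.17 on the absolute log2 scale, and those of control IgG-IP by 1.02. The summed CPM of 7 elongating spermatid markers came to 4333 and 3958 in TSSK2-IP, with 10879 and 5209 in control IgG-IP. That of 6 round spermatid markers was 595, 629, 1005 and 654 in the same order. Akap4 alone gave 1164 and 1146 CPM in TSSK2-IP and 5879 and 1823 CPM in control IgG-IP. The median log2 fold change was -0.09 over the elongating spermatid markers, with 3 below both controls and 1 above both. Over the round spermatid markers it was -0.35, with 4 below both controls and 1 above both. The 6 spermatocyte markers summed to 658 and 596 CPM in TSSK2-IP and 746 and 593 CPM in control IgG-IP. Their median log2 fold change was -0.07, with 0 below both controls and 2 above both. For the 6 spermatogonial markers the sums were 43.5 and 33.3 CPM in TSSK2-IP and 33.1 and 53.5 CPM in control IgG-IP. There the median was 0.06, with 1 below both controls and 1 above both. The 5 lists of somatic cell markers summed to between 9.83 and 48.1 CPM in any library, 0 of the markers of any list were called, and their part in the results was not tested.

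No helicase mRNA was called different between TSSK2-IP and control IgG-IP, in either direction. A call required a log2 fold change of 1 or more in size together with an adjusted p up to 0.05 (edgeR quasi-likelihood test, Benjamini-Hochberg over 14722 genes). Of all genes tested, 0.693% were called higher and 0% lower. At an unadjusted p under 0.05, 1 helicase was higher, Ddx39, and 9 were lower, against 8.34% and 4.89% of all genes. The smallest adjusted p of any member was 0.250, for Ddx49. The fitted log2 fold change was above 0 for 19 of the 53 members, beside 49.2% of all genes, and below 0 for 34, beside 50.8%, with a median of -0.29 over the helicases and -0.02 over all genes. It was 1 or more for 1 member, Dhx35, beside 11.1% of all genes, and -1 or below for 12 members, beside 9.88% of all genes. Both TSSK2-IP libraries lay below both controls for 26 members and above both for 12, and the groups overlapped for 15. For all genes, those shares were 21.6% below and 27.3% above. The paper's co-IP protocol, to which its cross-linked IP refers, shared each precleared lysate evenly between TSSK2 and IgG beads. It does not state which of the sequenced libraries came from one lysate. No input library was analysed here, so whether an mRNA was bound less or was rarer in a lysate was not tested.

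**Figure D1:**
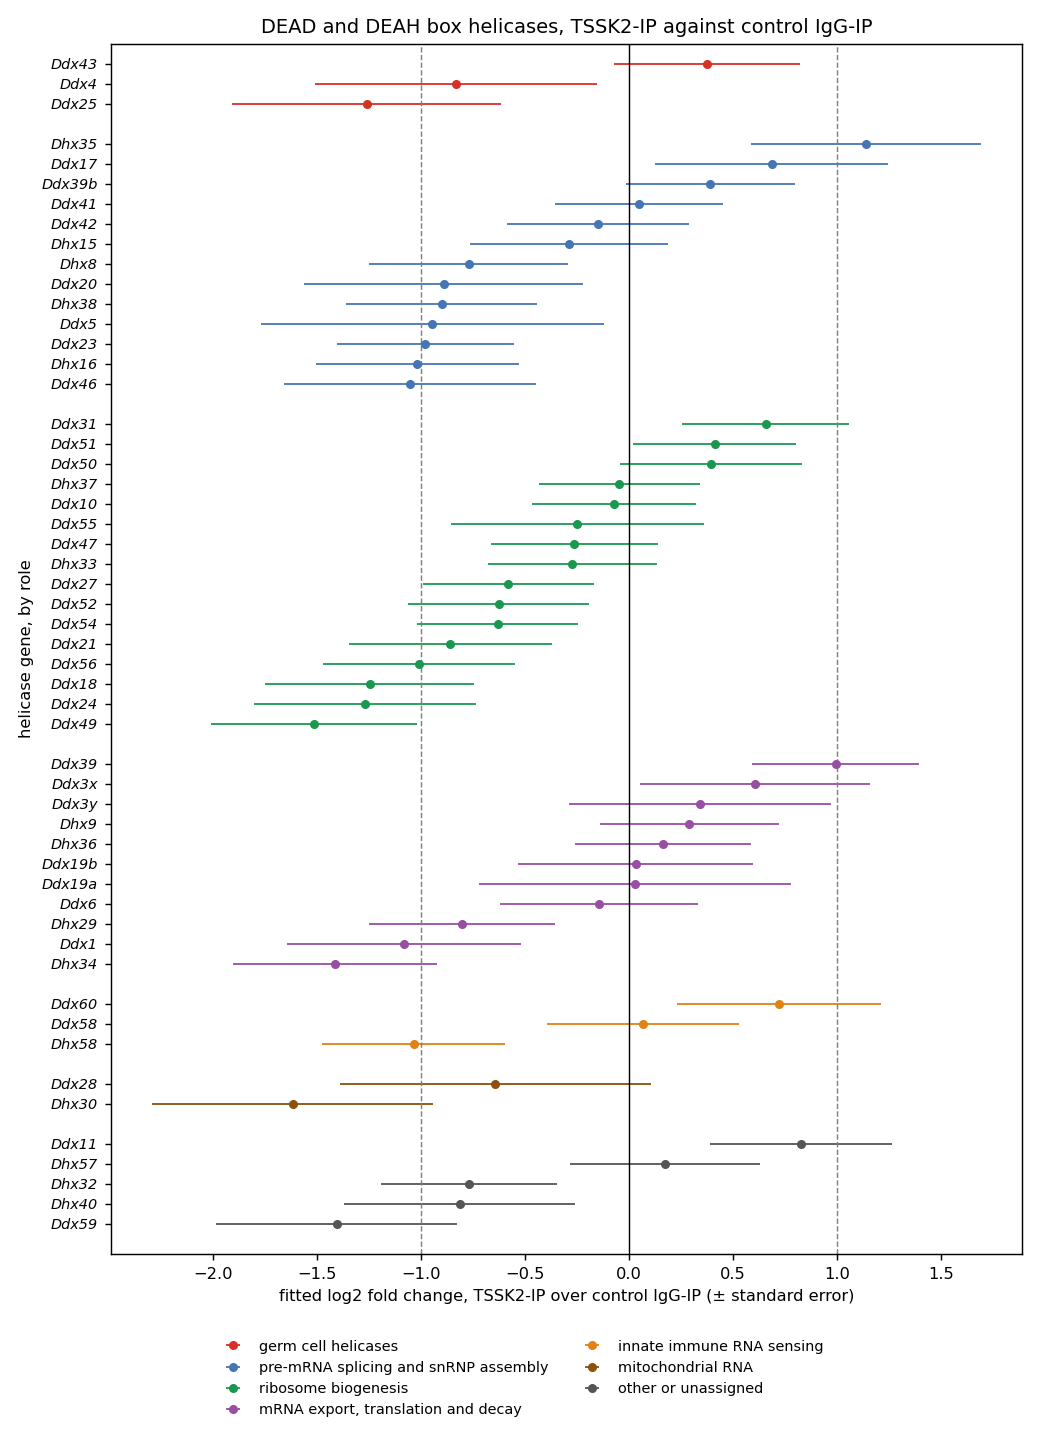
Fitted log2 fold change of TSSK2-IP over control IgG-IP (x axis) for the 53 helicase genes (y axis), grouped and coloured by role, with bars of 1 standard error on each side and dashed lines at a 2-fold change. The values run from 1.14 for Dhx35 to -1.62 for Dhx30, and most splicing and ribosome biogenesis members lie left of 0.

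Ddx4 and Ddx25, the germ cell helicases of the chromatoid body and of spermatids, were not higher in TSSK2-IP. The Ddx4 mRNA stood at 354 and 368 CPM in TSSK2-IP and at 865 and 422 CPM in control IgG-IP. Both TSSK2-IP libraries were thus below both controls, and control replicate 1 was far above the other 3 libraries. These values are scaled, and the TMM factor of 0.652 raised the CPM of control replicate 1. Before scaling, Ddx4 had 1708 of 4158034 and 1936 of 4491749 counts in TSSK2-IP. In control IgG-IP it had 5544 of 9858941 and 1837 of 3938922 counts. The mean was 361 ± 10.1 CPM (SD, n = 2) in TSSK2-IP and 644 ± 313 CPM (SD, n = 2) in control IgG-IP. The log2 fold change of Ddx4 was -0.83 with a standard error of 0.68 and an adjusted p of 0.588 (edgeR quasi-likelihood test).

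The Ddx25 mRNA showed the same order of groups, with 176 and 178 CPM in TSSK2-IP and 634 and 214 CPM in control IgG-IP. For this gene the log2 fold change was -1.26 with a standard error of 0.65 and an adjusted p of 0.404 (edgeR quasi-likelihood test). Ranked by log2 fold change from the highest, Ddx4 had rank 36 and Ddx25 rank 48 among the 53 helicases. The other 51 members had a median of -0.27, and 5 helicases had lower values than Ddx25. Ddx43, a further germ cell helicase that is also known from tumours, was measured at 13.9 and 11.04 CPM in TSSK2-IP and at 9.99 and 9.19 CPM in control IgG-IP, with a log2 fold change of 0.38 and an adjusted p of 0.728 (edgeR quasi-likelihood test).

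Ddx4 made up 8.003% of all helicase counts in TSSK2-IP replicate 1, with a 95% Wilson interval of 7.65% to 8.37%, and 8.36% in replicate 2, with an interval of 8.01% to 8.72%. In control IgG-IP its share was 9.23% in replicate 1 (9.003% to 9.47%) and 9.11% in replicate 2 (8.72% to 9.52%). The share of Ddx25 was 3.97% (3.71% to 4.24%) and 4.04% (3.79% to 4.30%) in TSSK2-IP and 6.77% (6.57% to 6.97%) and 4.62% (4.34% to 4.92%) in control IgG-IP. Both genes thus held a smaller share of the helicase counts in each TSSK2-IP library than in either control, and the intervals cover counting error only. This order was not particular to them. Ddx5 held 16.1% and 15.4% in TSSK2-IP and 20.1% and 17.1% in control IgG-IP. For Ddx20 the groups overlapped, with 6.28% and 7.36% in TSSK2-IP and 8.40% and 7.10% in control IgG-IP. These shares do not depend on the scaling of the libraries.

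The size of the differences depended on which control library was used. Over the helicases, the median log2 ratio of the TSSK2-IP mean was -0.69 against control replicate 1 and -0.19 against control replicate 2, while over all genes these medians were 0.21 and -0.0021. Control replicate 1 had the highest CPM of the 4 libraries for 32 of the 53 members, beside 35% of all genes, and the lowest for 14, beside 42.2%. It was at least 2-fold above replicate 2 for 20 members, beside 16.8% of all genes, and at least 2-fold below it for 8, beside 26.8%. Control replicate 2 lay above both TSSK2-IP libraries for 31 members, beside 40.7% of all genes, and below both for 18, beside 40.4%.

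Without control IgG-IP replicate 1, 1 helicase, Ddx39, was called higher and 0 were called lower, where 5.38% of all genes were called higher and 2.56% lower. The log2 fold change was then -0.17 for Ddx4, with an adjusted p of 0.360, and -0.22 for Ddx25, with an adjusted p of 0.277 (edgeR quasi-likelihood test). Without control IgG-IP replicate 2, 5 helicases were called higher and 23 lower, where 17.9% of all genes were called higher and 17.4% lower. Ddx4 then had a log2 fold change of -1.33 with an adjusted p of 6.8e-30 and Ddx25 one of -1.91 with an adjusted p of 7.49e-54 in the same test. In both of these fits the single control library is assumed to vary as the TSSK2-IP libraries do. The calls against control replicate 1 alone therefore compare with that library and carry no spread of the control group.

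**Figure D2:**
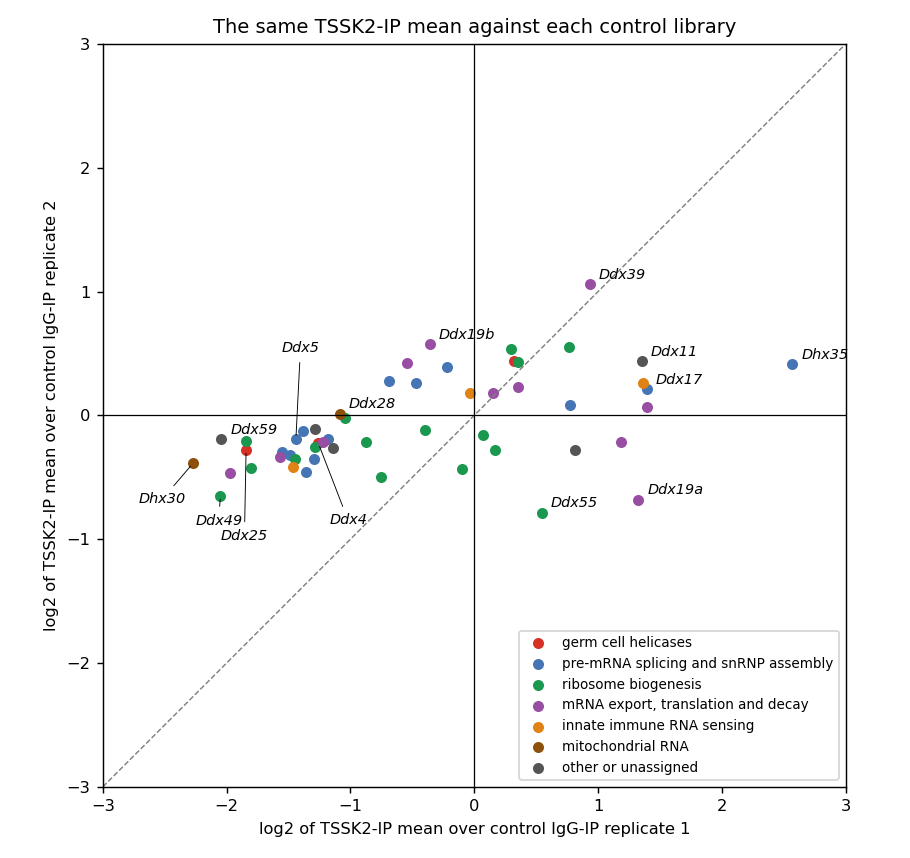
Log2 ratio of the mean TSSK2-IP CPM to control IgG-IP replicate 1 (x axis) and to control IgG-IP replicate 2 (y axis) for the 53 helicases, coloured by role, with equal ratios on the dashed line. The points spread from -2.27 for Dhx30 to 2.57 for Dhx35 along the x axis but stay between -0.79 for Ddx55 and 1.06 for Ddx39 along the y axis.

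Of the 13 helicases of pre-mRNA splicing and snRNP assembly, 9 had a log2 fold change below 0, beside 50.8% of all genes. Both TSSK2-IP libraries lay below both controls for 7, beside 21.6% of all genes, and above both for 3, beside 27.3%. None of the 13 was called, and their median was -0.77. That median was -0.071 without control replicate 1, beside -0.0028 over all genes. Without control replicate 2 it was -1.25, beside 0.16 over all genes. Ddx5, which acts in splicing and as a transcriptional coregulator, was measured at 713 and 677 CPM in TSSK2-IP and at 1887 and 793 CPM in control IgG-IP. For Ddx5 the log2 fold change was -0.95 ± 0.82 (standard error). The spliceosomal ATPases that remodel the complex step by step had log2 fold changes of -1.05 for Ddx46 (Prp5 in yeast), -0.98 for Ddx23 (Prp28), -1.02 for Dhx16 (Prp2), -0.90 for Dhx38 (Prp16) and -0.77 for Dhx8 (Prp22), and each had both TSSK2-IP libraries below both controls. Dhx15, the Prp43 homologue that takes spliceosomes apart, stood at 104 and 94.4 CPM in TSSK2-IP, between control values of 160 and 82.0 CPM. Ddx20, the Gemin3 subunit of the SMN complex that assembles snRNPs, was measured at 278 and 324 CPM in TSSK2-IP and at 787 and 329 CPM in control IgG-IP.

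The splicing list also held the highest fold change of the family. Dhx35, a component of catalytic spliceosomes, was measured at 31.1 and 35.6 CPM in TSSK2-IP and at 5.62 and 25.0 CPM in control IgG-IP. Both TSSK2-IP libraries were above both controls, and control replicate 1 was the lowest. For Dhx35 the log2 fold change was 1.14 with a standard error of 0.55 and an adjusted p of 0.390 (edgeR quasi-likelihood test), and the log2 ratio was 2.57 against control replicate 1 and 0.41 against control replicate 2. Ddx17, the close relative of Ddx5, was measured at 260 and 239 CPM in TSSK2-IP and at 94.9 and 215 CPM in control IgG-IP. The fitted change of Ddx17, 0.69 on the log2 scale, had a standard error of 0.56.

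Of the 16 helicases of ribosome biogenesis, 13 had a log2 fold change below 0, beside 50.8% of all genes. For 9 of the 16 both TSSK2-IP libraries lay below both controls, beside 21.6% of all genes. The median of the list was -0.43. Without control replicate 1 that median was -0.18, beside -0.0028 over all genes. Without control replicate 2 it was -0.64, beside 0.16 over all genes. Ddx49, a nucleolar helicase of the small subunit pathway, was measured at 39.4 and 33.3 CPM in TSSK2-IP and at 151 and 57.0 CPM in control IgG-IP. Its log2 fold change was -1.52 with a standard error of 0.49, an unadjusted p of 0.0083 and an adjusted p of 0.250 (edgeR quasi-likelihood test), the smallest p among the helicases. On the opposite strand, Homer3 overlaps 29.9% of the exon bases of Ddx49. The paper names its anti-TSSK2 libraries as directional, but the strand setting of the counting is not given in the sources used here. Whether reads were shared between both genes is therefore not known. Ddx24 was measured at 81.5 and 72.7 CPM in TSSK2-IP and at 269 and 103 CPM in control IgG-IP, with a log2 fold change of -1.27 and an adjusted p of 0.343 in the same test.

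Ddx18, another nucleolar helicase, had 29.9 and 23.0 CPM in TSSK2-IP and 94.7 and 30.6 CPM in control IgG-IP. Ddx18 shares 1984 bases at 99.3% identity with Gm16433, so that the division of reads between both is uncertain. Ddx31 went the other way, with 24.0 and 23.8 CPM in TSSK2-IP, above 14.0 and 16.3 CPM in control IgG-IP. The log2 fold change of Ddx31 was 0.66 ± 0.40 (standard error), with an adjusted p of 0.476 (edgeR quasi-likelihood test). Ddx51 and Ddx50 were the remaining members of this list with values above both controls, at log2 fold changes of 0.41 and 0.39.

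The 11 helicases of mRNA export, translation and decay were spread around 0, with a median of 0.03. The fitted change was above 0 for 7 members and below 0 for 4, beside 49.2% and 50.8% of all genes. Ddx39, an RNA helicase of mRNA export, was measured at 84.0 and 78.0 CPM in TSSK2-IP and at 42.4 and 38.8 CPM in control IgG-IP. Both TSSK2-IP libraries were above both controls, and the controls lay close to each other. Its log2 fold change was 0.99 with a standard error of 0.40, an unadjusted p of 0.027 and an adjusted p of 0.327 (edgeR quasi-likelihood test). Without control replicate 1 it was 1.12 with an adjusted p of 7.56e-07, and without control replicate 2 it was 0.86 with an adjusted p of 2.29e-05 in the same test, under the fold change that a call required. Adgre5 lies on the opposite strand and overlaps 17.4% of the exon bases of Ddx39.

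Dhx34, a factor of nonsense-mediated decay, was the lowest of this list, with 21.4 and 16.9 CPM in TSSK2-IP and 75.4 and 26.4 CPM in control IgG-IP. Its log2 fold change was -1.41 with an adjusted p of 0.268 (edgeR quasi-likelihood test). Ddx1, which belongs to the tRNA ligase complex, was measured at 125 and 127 CPM in TSSK2-IP and at 374 and 159 CPM in control IgG-IP. Ddx6, the helicase that couples translational repression to decapping, had 107 and 105 CPM in TSSK2-IP, between control values of 155 and 79.3 CPM. Dhx36, which unwinds G-quadruplexes, and Dhx9, or RNA helicase A, had both TSSK2-IP libraries above both controls, with log2 fold changes of 0.16 and 0.29. Ddx3x and Ddx3y, the X- and Y-linked copies of a translation factor, were low in all libraries, at 3.74 to 11.2 CPM and 2.96 to 8.50 CPM, and their groups overlapped.

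Among the innate immune sensors, Ddx58, the gene of RIG-I, was measured at 9.54 and 10.3 CPM in TSSK2-IP and at 10.1 and 8.73 CPM in control IgG-IP, so that its groups overlapped. Dhx58, the gene of LGP2, had 27.6 and 29.3 CPM in TSSK2-IP, below 78.6 and 37.9 CPM in control IgG-IP. Ddx60 had 14.9 and 13.1 CPM in TSSK2-IP, above 5.46 and 11.7 CPM in control IgG-IP. No member of this list was called, and the smallest adjusted p was 0.343, for Dhx58 (edgeR quasi-likelihood test).

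Dhx30, which takes part in the assembly of mitochondrial ribosomes, had the lowest log2 fold change of the family. It was measured at 156 and 124 CPM in TSSK2-IP and at 678 and 184 CPM in control IgG-IP. The log2 fold change was -1.62 with a standard error of 0.68 and an adjusted p of 0.339 (edgeR quasi-likelihood test), and the log2 ratio was -2.27 against control replicate 1 but -0.39 against control replicate 2. Ddx28, of the same list, was sparse, with 8, 23, 41 and 13 counts in the 4 libraries, and its groups overlapped.

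Of the 5 members outside these lists, Ddx11, a DNA helicase of sister chromatid cohesion, was measured at 85.0 and 73.6 CPM in TSSK2-IP and at 31.0 and 58.6 CPM in control IgG-IP. For Ddx11 the log2 fold change was 0.83 ± 0.44 (standard error). Ddx59 had 5.18 and 6.09 CPM in TSSK2-IP and 23.2 and 6.43 CPM in control IgG-IP, so that its log2 fold change of -1.41 rested on control replicate 1. Dhx40 was measured at 138 and 141 CPM in TSSK2-IP and at 340 and 150 CPM in control IgG-IP, and Dhx32 and Dhx57 had log2 fold changes of -0.77 and 0.17.

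**Figure D3:**
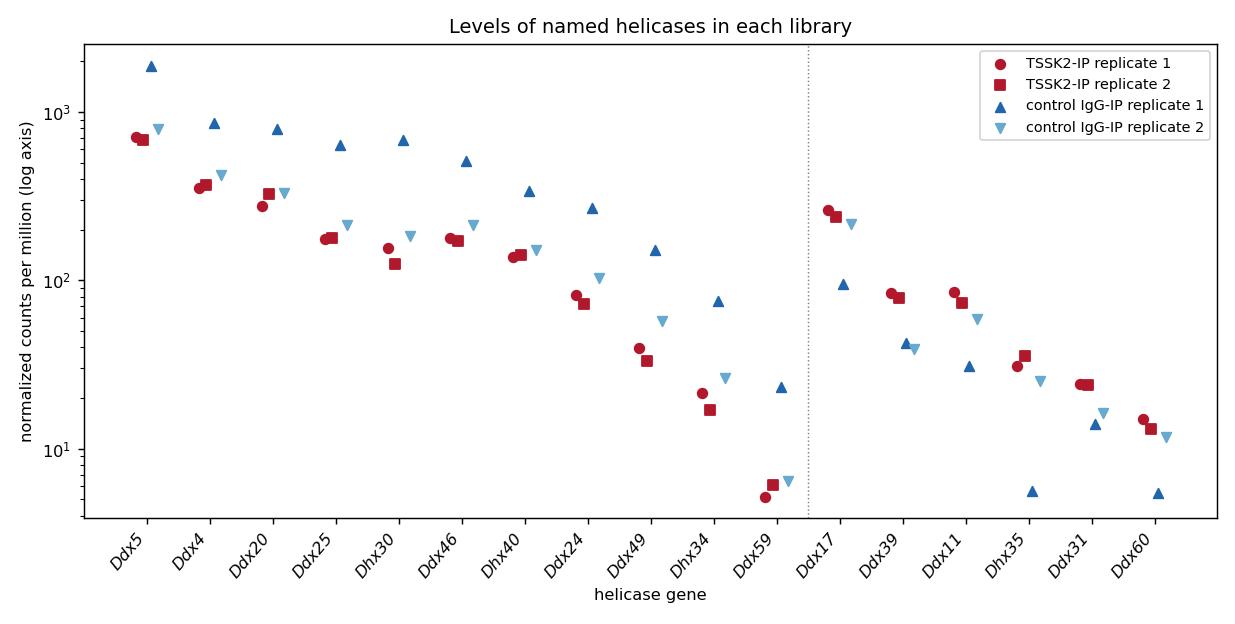
TMM-normalized CPM (y axis, log scale) in each of the 4 libraries for 17 helicases (x axis). Genes with a negative fold change stand left of the dotted line and those with a positive one right of it. Left of the line control IgG-IP replicate 1 is the highest library of every gene, and right of it control IgG-IP replicate 1 is the lowest of every gene but Ddx39.

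Ratios of related helicases within a library are free of library scaling. The count of Ddx17 was 0.365 and 0.353 times that of Ddx5 in TSSK2-IP, and 0.0503 and 0.271 times in control IgG-IP. Ddx50 had 1.28 and 1.61 times the counts of its nucleolar paralogue Ddx21 in TSSK2-IP, and 0.463 and 0.897 times in control IgG-IP. Both ratios were higher in each TSSK2-IP library than in either control. That order already follows from the CPM, as Ddx17 and Ddx50 lay above both controls and Ddx5 and Ddx21 below both.

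For Ddx39 over Ddx39b, which also serves mRNA export, the ratio was 2.45 and 2.37 in TSSK2-IP and 2.16 and 1.22 in control IgG-IP. The ratio of Ddx4 to Ddx25 was 2.02 and 2.07 in TSSK2-IP and 1.36 and 1.97 in control IgG-IP, so that control replicate 1 was the one library apart. For Ddx19a over Ddx19b, both mRNA export helicases of the nuclear pore, the TSSK2-IP ratios of 0.0225 and 0.0131 lay between control ratios of 0.0054 and 0.0417. D1Pas1, the autosomal relative of Ddx3x that male germ cells express, far exceeded it, with a ratio of Ddx3x to D1Pas1 of 0.0321 and 0.0403 in TSSK2-IP and 0.0046 and 0.0316 in control IgG-IP. With 2 libraries against 2, an exact two-sided permutation test of such a ratio cannot go below p = 0.333. Ddx5 shares 1216 bases at 98.4% identity with Gm12183, Ddx50 shares 435 bases at 97.2% with Gm8228, and Ddx19a and Ddx19b share 258 bases with each other, so these ratios depend on how such reads were counted.

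**Figure D4:**
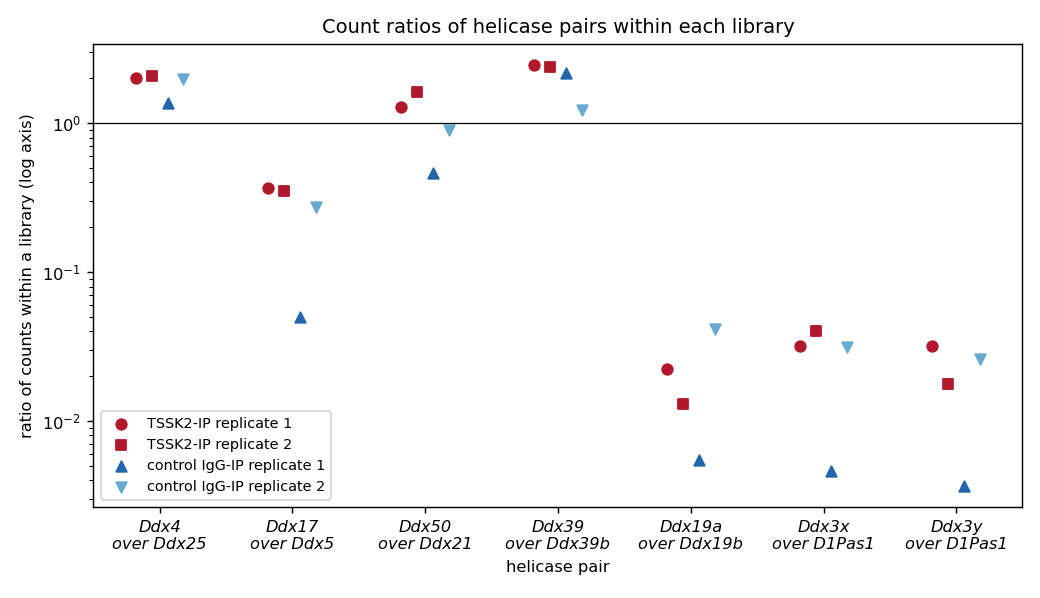
Ratio of the counts of 2 helicase genes within a library (y axis, log scale) for 7 pairs (x axis), with 1 point for each library. Control IgG-IP replicate 1 has the lowest ratio of every pair except Ddx39 over Ddx39b, where control IgG-IP replicate 2 is lowest at 1.22.

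Per kilobase of exon, Ddx5 and Ddx4 were the most abundant helicase mRNAs in every library, and their order changed between libraries. The level of Ddx5 was 123 and 117 CPM per kb in TSSK2-IP and 327 and 137 in control IgG-IP. That of Ddx4 was 117 and 122 CPM per kb in TSSK2-IP and 287 and 140 in control IgG-IP, so that Ddx4 was above Ddx5 in replicate 2 of both groups. Ddx20 came next in each library, with levels from 67.1 to 190 CPM per kb. The mean over the 4 libraries was 45.4 CPM per kb for Dhx40 and 43.3 for Ddx25, which control replicate 1 raised. In both TSSK2-IP libraries Ddx19b, at 34.2 and 38.8 CPM per kb, was above Dhx40, at 32.5 and 33.4, and Ddx25, at 25.3 and 25.7 CPM per kb. The median of the mean levels over the helicases was 10.3 CPM per kb, and over all genes tested it was 3.92. Across the 53 helicases the fitted log2 fold change had a Spearman correlation of -0.49 with the level per kilobase, beside -0.18 across all genes, and of -0.22 with GC content and 0.20 with exon length. Level and fold change share the same counts, and genes are not independent replicates, so these correlations are descriptions.

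Helicases under other symbols and the partners of helicases gave no call in either direction. The 24 RNA helicases outside the family rule had a median log2 fold change of 0.04, the 18 chromatoid body and piRNA partners one of 0.05, and the 24 helicase cofactors, among them the G-patch proteins, one of -0.07. Ago2, the slicing Argonaute, was measured at 292 and 270 CPM in TSSK2-IP and at 63.0 and 63.9 CPM in control IgG-IP. Its log2 fold change was 2.15 with an adjusted p of 0.085 (edgeR quasi-likelihood test), and with DESeq2 it was 2.07 with an adjusted p of 0.0022 and past the threshold. In the edgeR fit Gpatch2, a nuclear G-patch protein, was at 1.28. Znfx1, a zinc finger helicase, was at -1.40 with an adjusted p of 0.321 (edgeR quasi-likelihood test).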

How the data were processed

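Per the labels and methods, the authors used Trimmomatic 0.39 for trimming, STAR for alignment to GRCm38 and featureCounts 2.0.3 for counting, and the deposited values are raw counts per gene in whole numbers, without normalization. The strand setting of the counting and the handling of reads with several matches are not given in the sources used here. Of the 21936 gene identifiers, 21894 were named through GENCODE vM21, on the same build. The counts were fitted with edgeR 4.0.16 in R 4.3.3 (TMM, filterByExpr, glmQLFit and glmQLFTest, 14722 genes, common dispersion 0.135), and p-values were adjusted after Benjamini and Hochberg over all of them. The standard error is the log2 fold change divided by the square root of F.

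The members, role lists and tests were chosen with earlier results of these data known. Named were Ddx4 and Ddx25, the 6 members with the highest and the 6 with the lowest fold change, in each direction the 5 with the smallest p, the 5 with the highest level, the paralogue sets and the smallest p of each role list, with other members named after their values were seen. The replicates differed beyond sampling noise in both groups. Alternatives were DESeq2 1.42.0, other scalings and filters, offsets for GC content and length, the replicate number as a block, glmTreat at a 2-fold change, and each library left out. The counts of members above or below both controls were added as results after seeing the data.

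Motif II was first searched as DExD or DExH after GK[ST], which found DEAD in 27 Ddx genes and DEAH in 6 Dhx genes but matched some genes upstream of the helicase core. A hydrophobic residue before the box was therefore required, a rule chosen after seeing the matches. Shared sequence of at least 150 bases at 97% identity was searched with BLAST+ 2.17.0.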

Additional observations from a re-analysis of the deposited data

How the results depend on the processing

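No helicase was called higher or lower under any alternative that kept all 4 libraries, and the lowest adjusted p of a member among those was 0.0985, without a filter on low counts. When each library was left out in turn, between 0 and 5 helicases were called higher and between 0 and 23 lower. The called members then ranged from 0 to 2 germ cell helicases, 0 to 9 of splicing, 0 to 6 of ribosome biogenesis, 0 to 4 of export, translation and decay, 0 to 2 immune sensors, 0 to 1 mitochondrial and 0 to 4 other members, with calls only when a control was left out. The log2 fold change ranged from -1.33 to -0.17 for Ddx4 and from -1.91 to -0.22 for Ddx25. Their adjusted p was between 0.252 and 0.829 in the alternatives with all libraries, apart from the test against a 2-fold change. In that test (glmTreat) the smallest adjusted p of any helicase was 0.9999. The median over the helicases ranged from -0.76 to -0.13 (-1.25 to -0.071 for splicing, -0.64 to -0.18 for ribosome biogenesis, -1.21 to -0.13 for the other members, -0.24 to 0.14 for helicases under other symbols, and -0.046 to 0.32 for chromatoid body partners).

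Minus the median of all genes, the median over the helicases was -0.27, with -0.13 when control replicate 1 was left out and -0.93 when control replicate 2 was. The median of all genes moved from -0.02 to -0.14 with DESeq2 size factors and to -0.12 with offsets for GC content and length, and that difference was then -0.29 and -0.34. It was -0.20 both with DESeq2, where the median of all genes was -0.20, and without a filter, where it was -0.15. DESeq2 also tested more genes, so the parts of scaling and of the gene set in its shift cannot be told apart. Those offsets gave the chromatoid body partners a median of -0.14. Upper-quartile normalization left 7 members above both controls and 26 below, beside 22.4% and 26.7% of all genes, and DESeq2 size factors 8 and 27, beside 23.4% and 26.6%. With the longest transcript as length, the median level was 13.5 instead of 9.81 CPM per kb, the library mean of medians. The sign turned, without a call, for Ddx50 at -0.010 and Ddx3y at -0.16 with the offsets, and for Ddx19a at -0.067 with DESeq2 size factors and -0.11 with upper-quartile normalization. Ddx19b was at -0.085 with DESeq2, -0.11 with its size factors, -0.031 without a filter and -0.061 with the offsets. With libraries left out, Ddx3y ranged from -0.17 to 1.10, Ddx19a from -0.63 to 1.24 and Ddx19b from -0.43 to 0.63.

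With the replicate number as a block, 0 helicases were called and the median was -0.27, with Ddx4 at -0.74 and Ddx25 at -1.06. Of all genes, 274 were then called higher and 3 lower, against 102 and 0. The paper's protocol shares a lysate between both kinds of beads, but no source used here ties the replicate numbers to lysates. The replicate differences of both groups correlated at 0.13 over all genes and -0.14 over the helicases. Because control replicate 1 stood apart, these correlations cannot decide whether the numbers mark pairs. Counts of all genes called were 20 higher with upper-quartile normalization, 29 with at least 10 counts in every library, 32 in the test against a 2-fold change, and 160 with DESeq2 and 283 without a filter. Of all genes, 24 were called lower without a filter and 1 with DESeq2, and 0 in the other settings of this list.

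The standard errors of the members ran from 0.39 to 0.82 on the log2 scale, so that a 2-fold change lay within 3 standard errors. Members below about 10 CPM, such as Ddx28, Ddx19a and Ddx3y, rest on low counts.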
